A study of Mus musculus with 8 samples.

Results

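The mitochondrial genome of the mouse is a small circle that encodes a core set of respiratory chain proteins, and 10 of its messenger RNAs were followed here in the gastrocnemius, a large calf muscle. They were taken by gene symbol from a count table of 35949 named rows and are ND1, ND2, ND4, ND4L and ND5 (subunits of complex I), CYTB (complex III), COX1, COX2 and COX3 (complex IV) and ATP6 (ATP synthase). All 10 were present and all 10 passed the filter on low counts. The tissue came from aged mice that had received transplanted blood-forming stem cells, from controls or from donors overexpressing SIRT3, which removes acetyl groups from mitochondrial proteins. WT (n = 4) is taken to be the control arm and T3TG (n = 4) the SIRT3 arm, since the labels give only these names. The titles of the WT libraries begin with Mx1 and those of T3TG with T3, and the labels do not say what these stand for. The promoter of the transgene, the ages, the sex and the strain of the mice, and how much of the blood system the transplant replaced, were not stated. The question asked of these transcripts is whether their levels in the recipient's muscle differ between the arms, and how unequal they are among themselves.

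Mitochondrial DNA is transcribed by a dedicated RNA polymerase as long polycistronic RNAs, which are cut mostly at the transfer RNAs that lie between the coding genes. Most of the resulting messengers get short poly(A) tails. The messengers are translated by mitochondrial ribosomes, so each respiratory complex except complex II joins products of both genomes. ND4L and ND4 stay together on 1 messenger, and ATP6 shares its messenger with ATP8. In muscle these RNAs are known to be among the most abundant of the cell. Pieces of mitochondrial DNA have also been copied into the nuclear chromosomes during evolution, and reads from a gene with such a copy can align in both places.

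Library totals lay between 16.2 and 28.1 M counts. In T3TG replicates 2 and 3 nearly all low counts are even numbers (97.5% and 98.0% of values from 10 to 99, against 50.5% to 52.5% in the other 6 libraries), so values for the 6 libraries without them are given beside the members' results and beside any list they move by over 1.5 times. All 14 fast fiber and 11 slow fiber genes passed the filter on low counts, and the fast fiber genes had a median level of 7766 CPM. Relative to the WT mean, the mean log2 CPM of the fast fiber genes lay between -0.27 and 0.07 in every library. Sirt3 in the recipient muscle, which need not carry the transgene, had 17.3, 16.5, 19.7 and 22.0 CPM in WT and 19.1, 20.5, 15.7 and 15.4 CPM in T3TG. CPM are counts relative to the library total after TMM scaling.

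The 10 genes differed in how much of their sequence also occurs in transcripts from outside the mitochondrial genome. This is shown first because the genes with nearly all of their sequence shared also had the lowest levels. Each gene's GENCODE sequence was read in windows of 150 bases, the read length in the labels, and each window was looked for in all GENCODE transcripts from outside the mitochondrial genome. For ND1, ND2, ND5 and CYTB 0% of the windows were found elsewhere. For COX2, COX3, ATP6 and ND4L 99.4%, 99.8%, 99.4% and 98.0% were found. COX1 and ND4 were in between, with 23.6% and 59.2%. Except for 24 COX2 windows that a pseudogene on chromosome 2 also holds, the matches lay in a row of 7 annotated pseudogenes on chromosome 1 from 24611535 to 24616197 (GRCm38, minus strand), a span of 4663 bases. Of these pseudogenes 6 copy members and 1 copies ND3. None of the 7 has a row in the count table, so any reads placed on them were not seen here. Shorter windows found more. At 50 bases the share was 8.19% for ND2, 7.61% for ND5 and 51.1% for COX1, partly in pseudogenes on other chromosomes. It stayed at 0% for ND1 and CYTB.

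The stretches below show where the alignment with the annotated copy begins and ends, with the bases that the copy also holds in capitals. They are from the plus strand of the mitochondrial genome of GRCm38, at chrM:6360-6419 for COX1, chrM:11013-11072 for ND4, chrM:7637-7696 for COX2 and chrM:9331-9390 for COX3.
COX1: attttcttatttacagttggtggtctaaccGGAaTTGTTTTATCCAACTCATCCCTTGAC
ND4: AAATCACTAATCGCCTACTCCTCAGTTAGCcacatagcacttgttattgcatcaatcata
COX2: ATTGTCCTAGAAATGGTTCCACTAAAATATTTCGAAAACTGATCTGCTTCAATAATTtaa
COX3: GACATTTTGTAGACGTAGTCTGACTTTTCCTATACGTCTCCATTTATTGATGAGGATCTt

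The local alignment with the copy enters COX1 at base 1063 of the gene, counted from 1 at its 5′ end, and runs to its last base, 1545. Over these 483 bases there is 1 difference, A1066T (the mitochondrial base first, then the base of the copy). The longest identical run, of 479 bases, follows this difference. Whether the few bases before A1066T belong to the copy is not shown, since such short matches can arise at the edge of an alignment. The annotated copy leaves ND4 after base 876, with 876 of 876 bases identical. COX2, COX3, ATP6 and ND4L lie wholly between those points, and their annotated copies (Gm28661, Gm28437, Gm10925 and Gm10222) were identical over 681, 783, 678 and 294 bases. The lower-case bases at the ends of COX2 and COX3 are past the end of the annotated pseudogene, and the genome behind it was not read here.

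COX1, the catalytic core of cytochrome c oxidase, had more counts than any other of the 14064 genes tested. Its counts were 669063, 513086, 669409 and 806392 in WT and 726255, 705027, 948936 and 515351 in T3TG. CYTB, the cytochrome b of complex III, ranked 8 and had 230094 to 423531 counts, with a median of 290492. ND1, a membrane subunit next to the quinone site of complex I, ranked 11 and had 209264 to 426351 counts. ND5 and ND2, membrane subunits of the proton-pumping arm, ranked 13 and 14, with 134300 to 222049 and 127330 to 230501 counts. ND4, another subunit of that arm, ranked 21, with 105119 to 190889 counts. These 6 genes are the ones that lie outside the copied stretch or reach beyond it.

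The 4 genes inside the copied stretch were lower by orders of magnitude. COX2, which carries the site that takes electrons from cytochrome c, had 947, 966, 1349 and 1328 counts in WT and 993, 1201, 2072 and 557 in T3TG. COX3, a structural subunit of the same enzyme, had 340, 216, 332 and 1132 counts in WT and 1031, 313, 517 and 219 in T3TG. ATP6, the proton channel subunit of ATP synthase, had 527, 117, 319 and 331 counts in WT and 211, 499, 381 and 154 in T3TG. ND4L, the smallest subunit of complex I in the set, had 65, 26, 52 and 67 counts in WT and 55, 52, 32 and 35 in T3TG. The highest value among these 4 genes in any library is far under the lowest value among the other 6. Together the 4 held between 0.0719% and 0.140% of the counts of the 10 members.

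**Figure D1:**
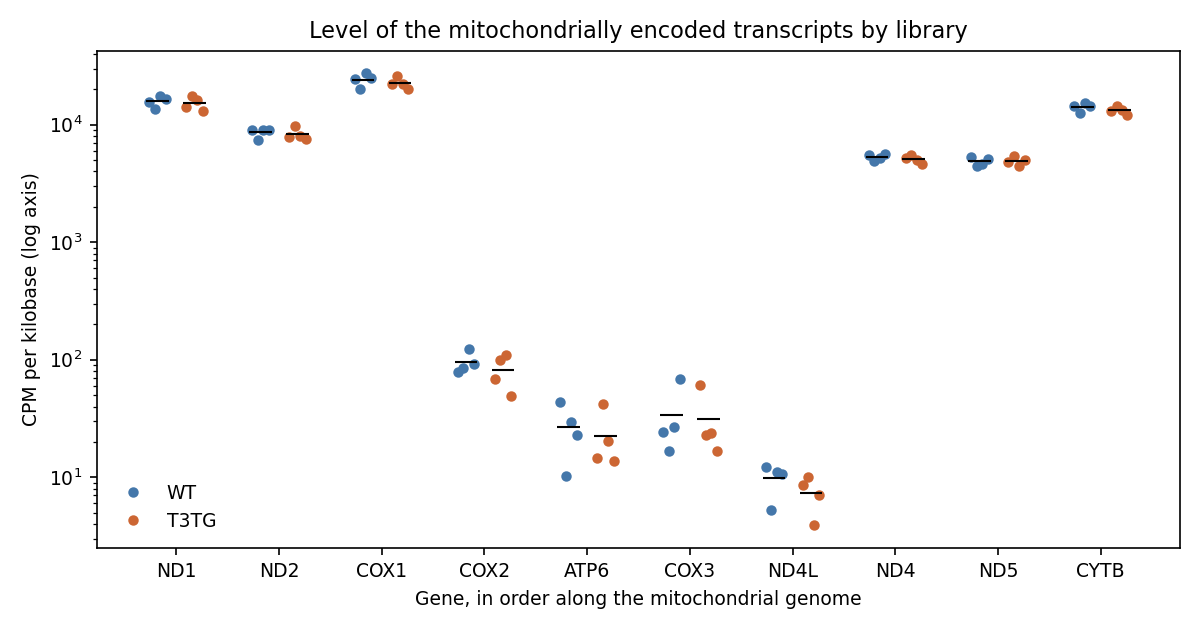
Level of each transcript per kilobase of gene in each library, on a log axis, in the order of the genes along the mitochondrial genome. Points are libraries (WT blue, T3TG orange) and bars are group means. The neighbouring COX2, ATP6, COX3 and ND4L lie between 3.91 and 124 CPM per kilobase in all 8 libraries, and the other 6 genes between 4417 and 27329.

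Per kilobase of gene, the scale on which levels of different genes can be set side by side, COX1 stood at 23363 ± 2686 CPM per kilobase (SD over the 8 libraries). ND1 had 15559 ± 1742, CYTB 13697 ± 1089, ND2 8455 ± 846, ND4 5198 ± 352 and ND5 4888 ± 372 CPM per kilobase. The order of the first 5 was the same in 8 of 8 libraries, with COX1 between 1.38 and 1.57 times ND1 and ND1 between 1.08 and 1.21 times CYTB. On this scale ND4 and ND5 were close, with ND4 at 0.920 to 1.14 times ND5. ND4 was the higher in 7 of 8 libraries, and ND5 in T3TG replicate 4. COX1 was 4.02 to 5.87 times ND5.

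Below this came COX2 with 88.3 ± 23.9 CPM per kilobase, COX3 with 32.7 ± 20.4, ATP6 with 24.6 ± 12.7 and ND4L with 8.63 ± 2.96. ND5, the last of the abundant genes, was 37.4 to 102 times COX2. COX3 and ATP6 changed places between libraries, with COX3 the higher in 5 of 8. The highest member, COX1, was 2708 times the lowest, ND4L, in the means over the libraries, and 1979 to 5700 times within a library. Subtracting 200 bases from each length, a rough allowance for fragments that must fit inside a gene, brought that ratio to 1016.

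Some pairs that share a messenger or an enzyme were far apart. ND4 was 445 to 1286 times ND4L per kilobase, although the coding regions overlap on the same RNA (ND4L from 9877 to 10173 and ND4 from 10167 to 11544 on chromosome M). COX1 was 203 to 410 times COX2, its partner in the core of cytochrome c oxidase. For ND4 and COX1 the counts per window found nowhere else were also computed. This scale gives a level only if reads from shared windows were not counted, and the treatment of such reads was not stated. The divisor also counts single windows although the libraries were sequenced as read pairs, so the order on this scale is not settled. On that scale COX1 stayed first with 33.9 ± 3.89 CPM per window, and ND4 moved past ND2 in 8 of 8 libraries, with 14.3 ± 0.967 against 9.87 ± 0.988 CPM per window (SD, n = 8). ND1 had 18.4, CYTB 15.7 and ND5 5.32 CPM per window. The same measure was not used for the 4 copied genes, since the few windows left to them lie at the edge of the annotation of the copies.

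**Figure D2:**
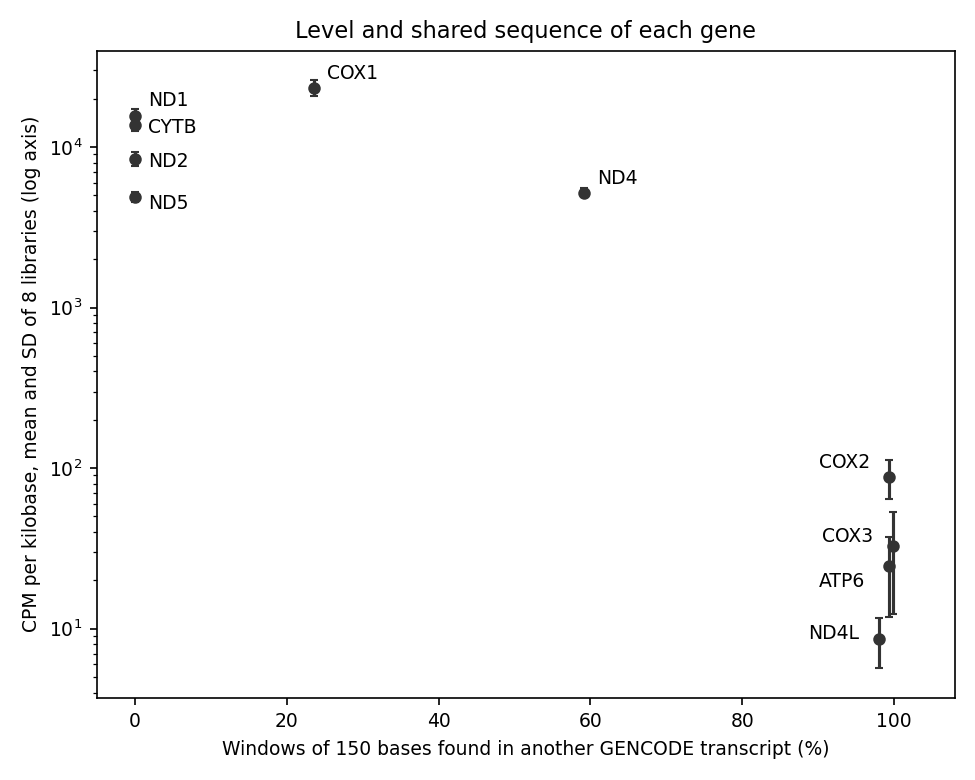
Mean level of each transcript per kilobase (log axis, with the SD over 8 libraries) against the percent of its 150-base windows found in a GENCODE transcript from outside the mitochondrial genome. The 4 genes at 98.0% or more lie below 100 CPM per kilobase on average, and ND4, at 59.2%, stands with the genes at 0%.

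The other rows of the mitochondrial genome give 3 further points, which are not among the 10. ND3, whose copy holds 97.0% of its windows, had 125 to 306 counts. ND6, the one coding gene of the opposite strand, shares no window and had 43118 to 108197 counts. The strand setting of the counting is not given, so ND6 cannot be told apart from RNA of the other strand at the same place, where the end of the ND5 messenger lies. ATP8 shares 0% of its windows with an annotated transcript and had 1 to 10 counts. It is only 204 bases long, starts between COX2 and ATP6, within the copied stretch by position, and overlaps ATP6. The chromosome 1 annotation leaves 233 bases between the copies of ATP6 and COX2 without a gene, so the 0% does not show that ATP8 has no copy. The part of the nuclear copies in the low counts of the copied genes was not tested, since it needs the alignments.

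The members' own counts in T3TG replicates 2 and 3 were not mostly even. Of all genes with at least 100 and under 2500 counts, 87.8% and 87.7% were even there. Of the 6 values that COX2, COX3 and ATP6 had in the 2 libraries, 1 was even. The ND4L counts of 52 and 32 there were both even, as were nearly all counts of that size. Of the 12 values of the abundant members there, which lie far above that range, 4 were even.

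The 10 transcripts together took 9.47%, 7.94%, 9.98% and 9.53% of the counts in WT and 9.21%, 10.6%, 8.70% and 7.95% in T3TG. The lowest WT and the lowest T3TG library were nearly level, and the groups overlapped over almost their whole range. The means were 9.23% ± 0.891 in WT and 9.11% ± 1.11 in T3TG (SD, n = 4 each), a difference of -0.118 percentage points, small beside either SD. In the 6 libraries the difference was -0.650 percentage points, and with 1 library left out it ran from -0.609 (without T3TG replicate 2) to 0.270 (without T3TG replicate 4). Some libraries share the first number of their titles, which the labels do not explain. Within number 2, with 1 library a group, T3TG was higher by 1.28 percentage points, and within number 6, with 1 WT and 3 T3TG libraries, the difference was -0.454. In bulk tissue, fewer cells of a type and less RNA per cell cannot be told apart.

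No member passed the test of T3TG against WT over all genes. With edgeR's quasi-likelihood test and Benjamini-Hochberg adjustment 0 of the 10 passed, against 0.0711% of the 14064 genes tested. At an unadjusted p under 0.05 there were also 0, against 8.33% of all genes (5.88% higher and 2.45% lower), and DESeq2's Wald test called 0, against 0.793%. The groups overlapped in all 10, whereas 3.12% of all genes stood higher and 1.66% lower in T3TG without overlap. The fitted log2 fold change was below 0 in 9 of the 10, against 50.9% of all genes, with a median of -0.09 against 0.00 for all genes. The 9 of 10 held under every scaling tried. The 10 genes come from the same few precursor RNAs and the same libraries, so the 9 are not 9 separate observations.

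COX1 is the member with the most counts behind it. Its levels were 37704, 30927, 42223 and 38259 CPM in WT and 33997, 40158, 34428 and 31065 CPM in T3TG. WT replicate 2 was the lowest of all 8 and WT replicate 3 the highest, so the WT group spanned every T3TG value. The log2 fold change was -0.09 (SE 0.12, edgeR adjusted p = 0.866), and its 95% interval ran from 0.787 to 1.11 times the WT level. In the 6 libraries the value was -0.20.

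CYTB had 16354, 14326, 17391 and 16605 CPM in WT and 14885, 16563, 15366 and 13870 CPM in T3TG. Of the T3TG libraries, replicate 2 stood inside the upper WT values and replicate 4 below all WT libraries. The log2 fold change was -0.09 (SE 0.10, edgeR adjusted p = 0.848), which leaves room for 0.810 to 1.09 times the WT level, and -0.17 in the 6 libraries.

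For the complex I genes ND1, ND2 and ND4 the log2 fold changes were nearer to 0, at -0.06, -0.06 and -0.05 (SE 0.12, 0.11 and 0.10). ND1 had 15024, 13063, 16883 and 15800 CPM in WT and 13449, 16816, 15468 and 12614 CPM in T3TG. ND2 had 9402, 7675, 9369 and 9351 CPM in WT and 8160, 10066, 8363 and 7828 CPM in T3TG. ND4 had 7571, 6719, 7197 and 7691 CPM in WT and 7188, 7678, 6926 and 6337 CPM in T3TG. In all 3 genes WT replicate 2 was the lowest WT library and T3TG replicate 4 the lowest T3TG library. The edgeR adjusted p lay between 0.926 and 0.932, and the intervals together ran from 0.810 to 1.14 times the WT level. In the 6 libraries the values were -0.22 for ND1, -0.16 for ND2 and -0.11 for ND4, with edgeR adjusted p between 0.959 and 0.985.

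ND5 was the 1 member with a fitted value above 0, at 0.01 (SE 0.10, edgeR adjusted p = 0.983). Its levels were 9653, 8095, 8487 and 9244 CPM in WT and 8797, 9877, 8056 and 9116 CPM in T3TG, and the interval ran from 0.873 to 1.17 times the WT level. T3TG replicate 4, the lowest or next to lowest library for the other abundant members, was the fourth highest of the 8 for ND5. The sign of the ND5 value turned without WT replicate 2 (-0.03), without WT replicate 3 (-0.01) and without T3TG replicate 2 (-0.04), and it was 0.01 in the 6 libraries.

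The 4 copied genes had wider intervals. COX2 had 53.4, 58.2, 85.1 and 63.0 CPM in WT and 46.5, 68.4, 75.2 and 33.6 CPM in T3TG, which gave -0.21 on the log2 scale (SE 0.28, edgeR adjusted p = 0.884). T3TG replicates 2 and 3 lay among the WT values and T3TG replicates 1 and 4 below them. In the 6 libraries without replicates 2 and 3 the COX2 value was -0.69 with an unadjusted p of 0.0100 in the edgeR fit, where 5.35% of all genes had an unadjusted p under 0.05, and its adjusted p was 0.888. It was the 1 member under 0.05 unadjusted in that fit, where 0% of all genes passed after adjustment.

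ATP6 had 29.7, 7.05, 20.1 and 15.7 CPM in WT and 9.88, 28.4, 13.8 and 9.28 CPM in T3TG. WT replicate 1 and T3TG replicate 2 were high, and WT replicate 2 was the lowest. The log2 fold change was -0.25 (SE 0.54, edgeR adjusted p = 0.940) and turned to 0.09 without WT replicate 1. In the 6 libraries it was -0.92, with an interval from -2.52 to 0.68 and an edgeR adjusted p of 0.962. COX3 had 19.2, 13.0, 20.9 and 53.7 CPM in WT and 48.3, 17.8, 18.8 and 13.2 CPM in T3TG. A single library in each group, WT replicate 4 and T3TG replicate 1, stood at more than 2 times every other library. Its fitted value of -0.13 on the log2 scale (SE 0.61, edgeR adjusted p = 0.978) became 0.47 without WT replicate 4 and 0.20 in the 6 libraries, so these data leave its direction undetermined.

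ND4L had 3.66, 1.57, 3.28 and 3.18 CPM in WT and 2.57, 2.96, 1.16 and 2.11 CPM in T3TG, giving -0.43 on the log2 scale (SE 0.32, edgeR adjusted p = 0.766). WT replicate 2 and T3TG replicate 3 were the low libraries, and in the 6 libraries the value was -0.32. It rests on few counts: the 26 counts of WT replicate 2 have an exact 95% Poisson interval of 17.0 to 38.1, and the 67 of WT replicate 4 one of 51.9 to 85.1, which cover counting error only. The interval ran from 0.462 to 1.20 times the WT level for ND4L, from 0.340 to 2.09 times for ATP6 and from 0.329 to 2.54 times for COX3. Differences within these ranges are therefore not excluded by these libraries.

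**Figure D3:**
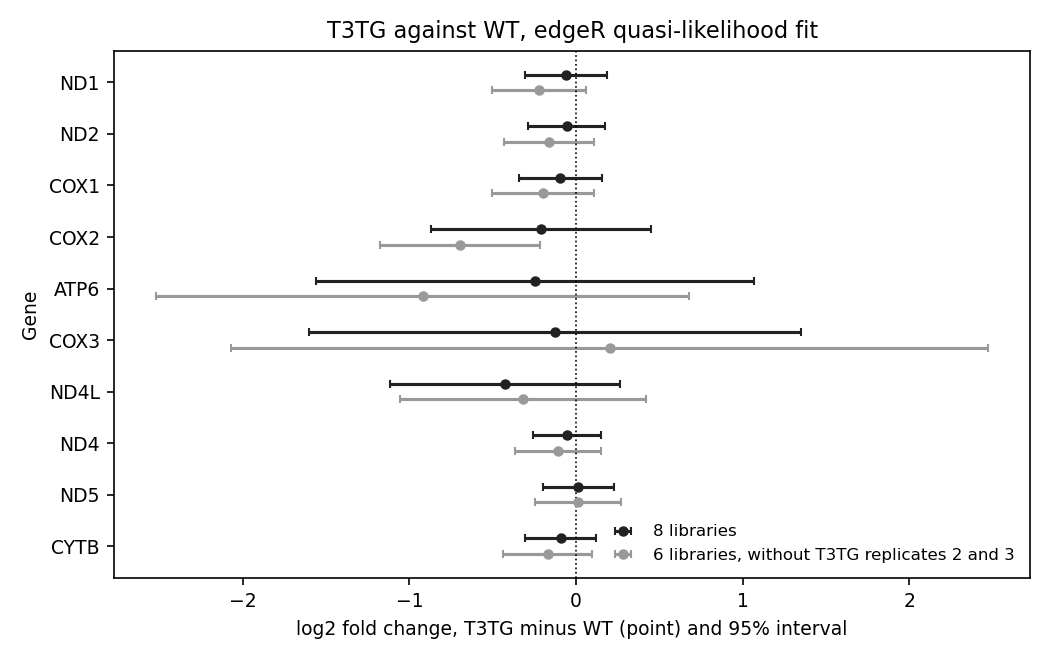
Log2 fold change of each transcript, T3TG minus WT, with its 95% interval from the edgeR fit over all 8 libraries (black) and over the 6 libraries without T3TG replicates 2 and 3 (grey). The 6 abundant genes lie between -0.09 and 0.01 in the fit of 8 libraries, and COX3 and ATP6 have the widest intervals.

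Of the abundant transcripts, CYTB, ND2 and COX1 had shares of the members' counts that varied little, and ND5 varied more. The abundant genes make up nearly all of the total they are divided by, which holds down the spread of the largest shares. CYTB made up 16.4% to 17.7% of the counts of the 10 members in every library, and COX1 38.2% to 41.5%. ND2 made up 9.21% to 9.94%. The coefficient of variation over the 8 libraries was 2.19% for the CYTB share, 2.45% for ND2, 2.59% for COX1, 3.99% for ND1 and 5.03% for ND4. It was largest among the 6 for ND5, at 8.74%, with a share of 8.35% in WT replicate 3 and 11.3% in T3TG replicate 4. These shares were 9.49% ± 0.800 in WT and 10.1% ± 0.918 in T3TG for ND5 (SD, n = 4 each), and the groups overlapped.

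The shares of the copied genes varied far more, with coefficients of 22.8% for COX2, 29.0% for ND4L, 45.3% for ATP6 and 61.7% for COX3. COX3 and ATP6, next to each other on the genome, did not vary together. The ratio of COX3 to ATP6 counts was 0.645, 1.85, 1.04 and 3.42 in WT and 4.89, 0.627, 1.36 and 1.42 in T3TG. COX3 was thus below ATP6 in WT replicate 1 and T3TG replicate 2, where ATP6 was at its highest, and well above it in WT replicate 4 and T3TG replicate 1, where COX3 was.

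**Figure D4:**
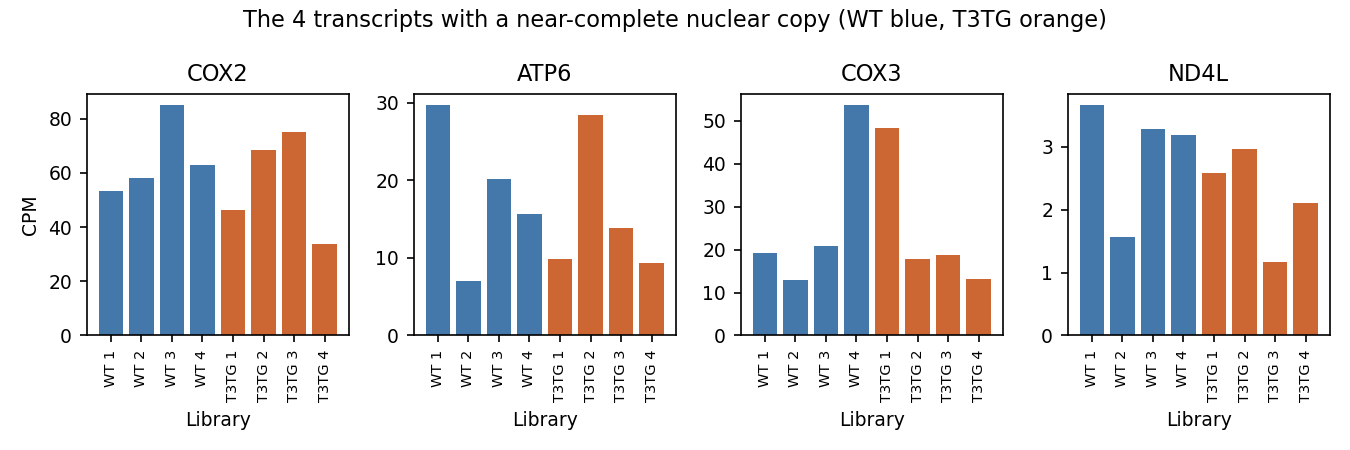
Levels in CPM of the 4 transcripts that lie within the copied stretch, for each library, with an axis from 0 for each gene. COX3 is high in WT replicate 4 and T3TG replicate 1, and ATP6 in WT replicate 1 and T3TG replicate 2.

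For the nuclear genes of the same complexes the fitted values were also mostly below 0. For comparison, the median was -0.06 for the 6 abundant members and -0.23 for the 4 copied members. Of 76 tested nuclear subunits of complexes I, III, IV and ATP synthase, 74 had a fitted log2 fold change below 0, with a median of -0.13, and 0 passed the edgeR test. The medians of the 4 complexes stayed below 0 under each scaling tried and were -0.19, -0.13, -0.16 and -0.18 in the 6 libraries. The numbers below 0 were 36 of 36 for complex I, 9 of 9 for complex III, 12 of 14 for complex IV and 17 of 17 for ATP synthase. The most abundant were Uqcrc1 (-0.04) in complex III, Cox6a2 (-0.11) in complex IV and Atp5b (-0.07) in ATP synthase. Those with the lowest p were Ndufa3 (-0.31) and Ndufb3 (-0.22) in complex I, Uqcr10 (-0.21) and Uqcr11 (-0.24) in complex III, and Atp5k (-0.33) and Atp5e (-0.25) in ATP synthase. In complex IV they were the muscle isoform gene Cox8b (-0.34) and Cox6a1 (0.29), the form of subunit VIa that predominates outside muscle. Their edgeR adjusted p lay between 0.419 and 0.931.

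The 2 genomes did not move in step from library to library. As a mean log2 CPM relative to WT, the 6 abundant members stood at 0.05, -0.18, 0.07 and 0.06 in WT and -0.09, 0.12, -0.07 and -0.18 in T3TG. The 76 nuclear subunits stood at -0.21, -0.07, 0.15 and 0.12 in WT and -0.11, -0.17, -0.01 and -0.22 in T3TG. WT replicate 1 and T3TG replicate 2 were above the WT mean for the mitochondrial genes and well below it for the nuclear ones, while T3TG replicate 4 was low for both. Slow and oxidative fiber genes, on the same scale, ran from -0.40 in WT replicate 3 to 0.74 in WT replicate 4, and fast fiber genes from -0.27 in T3TG replicate 1 to 0.07 in WT replicate 2. Of the slow fiber genes 10 of 11 and of the fast fiber genes 13 of 14 had a fitted value below 0 in T3TG, with medians of -0.13 and -0.14 and 0 called by edgeR. The slow fiber median rests on WT replicate 4, without which it was 0.24, and it was 0.02 with voom and -0.39 under a block for the title number. The part of the fiber makeup of the samples in these values was not tested.

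**Figure D5:**
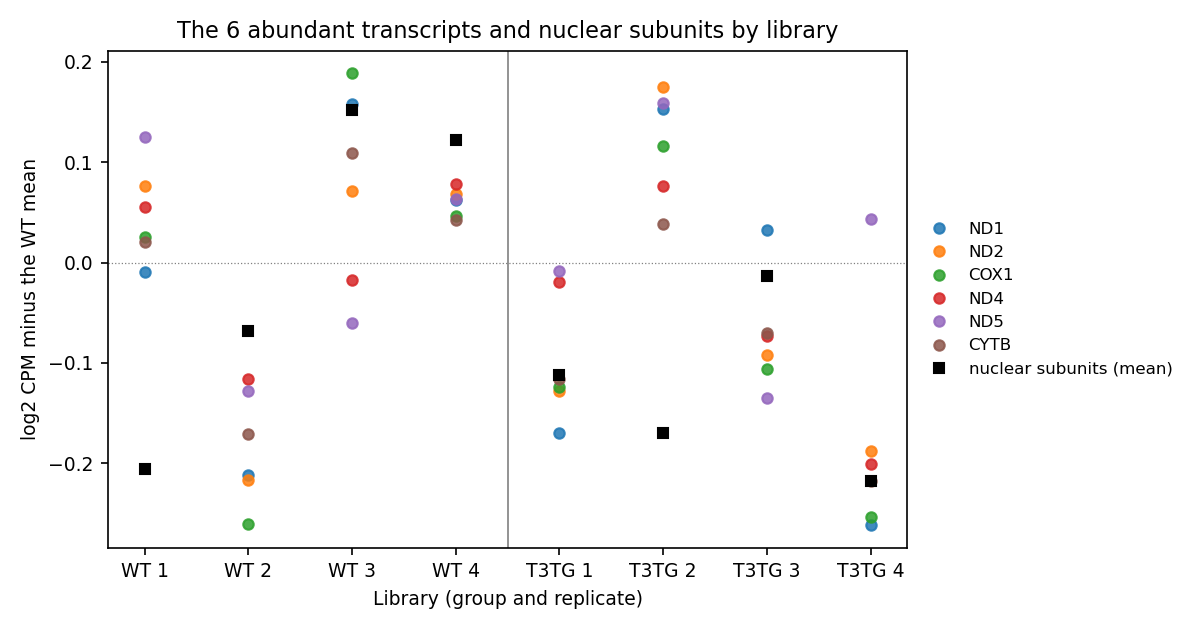
Log2 CPM minus the WT mean for the 6 abundant mitochondrial transcripts (circles) and the mean of 76 nuclear subunits of complexes I, III, IV and ATP synthase (black squares) in each library. WT replicate 2 and T3TG replicate 4 are low for most mitochondrial transcripts, and WT replicate 1 and T3TG replicate 2 are low for the nuclear subunits alone.

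Genes that maintain and transcribe mitochondrial DNA and handle its RNA were also compared. Of 25 tested genes of mitochondrial DNA maintenance and transcription 0 passed, 19 were below 0 and the median log2 fold change was -0.08. Slc25a4, the muscle adenine nucleotide carrier and the most abundant of them, had -0.11 (SE 0.09). Mgme1, a nuclease of mitochondrial DNA maintenance, stood at 17.4 ± 0.727 CPM in WT and 14.6 ± 0.860 in T3TG without overlap (-0.25, SE 0.10, edgeR adjusted p = 0.545), and Polg2, the accessory subunit of the mitochondrial DNA polymerase, -0.49 (SE 0.24). Of 34 genes of RNA processing, polyadenylation and stability 0 passed and 23 were below 0 (median -0.04, but 0.01 without scaling factors). Here Fastk had -0.04 (SE 0.07), Gtpbp3, which modifies mitochondrial transfer RNAs, 0.35 (SE 0.13), and Angel2 -0.16 (SE 0.09).

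Of 18 translation factors and activators 0 passed and 13 were below 0 (median -0.05). Mtrf1, a mitochondrial release factor, stood at 14.9 ± 1.10 CPM in WT and 11.5 ± 0.705 in T3TG without overlap (-0.37, SE 0.12, edgeR adjusted p = 0.329). Mtif3, an initiation factor, had -0.24 (SE 0.09) and Mss51, the most abundant of the list, -0.66 (SE 0.35). Of 33 assembly factors 0 passed and 26 were below 0 (median -0.07, and -0.12 in the 6 libraries), with Coa5 at -0.13, Ndufaf4 at -0.21 and Cox17 at -0.23. Among 18 genes of mitochondrial stress 0 passed (median -0.04, but 0.01 without scaling factors), with Hspa9, the mitochondrial HSP70, at -0.04, Trib3 at 0.82 (SE 0.33) and Psat1 at 0.56 (SE 0.25), which was higher in T3TG without overlap.

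Regulators of mitochondrial biogenesis were split, with 7 of 13 below 0 and 0 called by edgeR. Their median of -0.01 was 0.04 without scaling factors, 0.02 without WT replicate 4, 0.04 without T3TG replicate 1 and -0.03 in the 6 libraries. Ppargc1b, the coactivator PGC-1 beta, stood at 25.9 ± 3.72 CPM for WT against 16.8 ± 2.72 for T3TG (SD, n = 4 each), and every T3TG library stood below every WT library. Its log2 fold change was -0.63 (SE 0.13), with an edgeR adjusted p of 0.109, the lowest among the nuclear genes named here. It passed with DESeq2 (adjusted p = 0.0104) and in edgeR without the filter on low counts (adjusted p = 0.000976), and had edgeR or voom adjusted p between 0.0590 and 0.750 under the other alternatives. Perm1, the most abundant of the regulators, had 0.02 (SE 0.10) and Ppard 0.22 (SE 0.11), without overlap of the groups.

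Markers of other cells had larger median differences. Like the other lists, these were chosen with earlier results of these data known, so their counts beside the share over all genes are a description only. All 12 markers of fibro-adipogenic progenitors were above 0 in T3TG (median log2 fold change 0.48, 4 called by edgeR, against 0.0711% of all genes). Macrophage markers were above 0 in 15 of 15 (0.59, 0 called, 10 at an unadjusted edgeR p under 0.05, where 5.88% of all genes were higher). Adipocyte markers were above 0 in 11 of 11 (1.45, 0 called, 5 at an unadjusted edgeR p under 0.05). Of the adipocyte markers the mean log2 CPM relative to WT ran from -0.18 to 0.39 in WT and from -0.09 to 1.77 in T3TG. The macrophage median was 0.28 in the 6 libraries, and their mean log2 CPM relative to WT was 1.13 in T3TG replicate 3 against 0.30 to 0.36 in the other T3TG libraries. In the 6 libraries, and with library totals without the members, 0 genes of any list were called. Endothelial markers (0.23), red cell transcripts (0.99) and Schwann cell markers (0.15) had 0 called. The red cell transcripts were high in T3TG replicate 3 (2.63 relative to WT), without which their median was -0.32, and it was -0.35 in the 6 libraries. The Schwann cell median was -0.03 without WT replicate 2 and -0.07 with a term for title number 6. Heat shock and immediate early genes, which respond to handling, were split, with 5 of 10 above 0 and 0 called. Their median was 0.04 and ran to 0.33 in the 6 libraries and to -0.14 without T3TG replicate 1. The part of these cells and of handling in the members' values was not tested.

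Of 8047 other genes with at least 10 CPM, those whose level over the 8 libraries was most like that of the summed members were Hprt, Kat8, Inpp5k, 9430016H08Rik and Exosc3. Likeness was the root mean square difference of log2 CPM, each gene centred on its own mean, and was 0.04 to 0.05 for the 5, against a median of 0.19 for all genes compared and 0.13 for the summed members around their own mean. Both measures share the library scaling, and the 5 were picked as the nearest of many.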

How the data were processed

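PolyA-enriched libraries of gastrocnemius muscle were sequenced as read pairs, per the labels' protocols. The values the authors deposited are raw counts by gene symbol, with no normalization. HISAT2 2.2.1, HTSeq 0.9.1, DESeq2 1.34.0 and the mm10 build are named in the submitters' processing notes. The annotation, the strand setting and the treatment of reads with several alignments were not stated, and a counter that drops such reads lowers genes with a second copy. Of 35976 rows, 27 whose symbol had become a calendar date (0.0885% to 0.0961% of a library) were left out.

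After filterByExpr and TMM scaling, the counts were tested in edgeR 4.0.16 (quasi-likelihood, robust, R 4.3.3), T3TG minus WT, group as the only term, with Benjamini-Hochberg adjustment over 14064 genes and a threshold of 0.05. The SE is the log2 fold change over the square root of F. DESeq2 1.42.0 and voom of limma 3.58.1 were alternatives, with other scalings, filters, terms and left-out libraries. The script was run on simulated counts that did not imitate the even counts or the title numbers. The share of changed genes recovered is not given here. The labels do not say whether libraries come from separate animals, so the p-values reflect only how these samples vary, which may be technical.

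Sequences, gene positions and copies come from GENCODE vM21 (GRCm38, the assembly of mm10). The 10 symbols were matched to it by position through a RefSeq table of GRCm38.p6. Windows were compared on both strands, without mismatches. Copies were aligned locally. The members and gene lists were chosen with earlier results of these data known. Named nuclear genes are the most abundant and the 2 with the lowest p of each list. One gene that this rule names is not reported here.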

Additional observations from a re-analysis of the deposited data

Results flagged for a closer look

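In 22 checks of a group of 4 libraries for 1 value far from the rest, 2 stood out, about what chance gives (1 in 20). The ND2 level of 7675 CPM in WT replicate 2 lay far below the other WT libraries, which were at 9351 to 9402 CPM. The COX3 level of 48.3 CPM in T3TG replicate 1 lay far above the other T3TG libraries, which were at 13.2 to 18.8 CPM. The COX3 level of WT replicate 4, at 53.7 CPM, was as high but did not meet the same limit in its group.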

How the results depend on the processing

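No member passed under any of the 21 alternatives, and the members' median log2 fold change stayed below 0 in all of them. It ran from -0.161 (WT replicate 2 left out) to -0.0257 (T3TG replicate 4 left out) and was -0.183 in the 6 libraries. The genes called over the whole table (10 higher, 0 lower) moved: 52 higher without scaling factors, 0 with library totals without the members, 104 higher and 3 lower without the filter, 99 and 6 with DESeq2, 2 higher with voom, 1 and 1 with a term for title number 6, 0 in the 6 libraries and 0 with a term for the even libraries (added after seeing the data). Leaving out 1 library gave 0 to 37 higher and 0 to 1 lower. The cause of these shifts was not tested. Title numbers 2 and 6 occur in both groups, and the labels do not say what they mean. Same-numbered libraries correlated at -0.0537 to 0.155 in their deviations from the group means. Pairs with different numbers are not given beside them, so these values cannot tell whether the title number marks a shared origin. With that number as a replicate block, 3 genes were called higher and 1 lower, and the members' median was -0.0382. Signs turned, with no call, for ATP6 (0.25), Coa5 (0.006524) and Perm1 (-0.07403) under the block, ND5 (-0.01373) and Perm1 (-0.09414) with the term for number 6, COX3 (0.20) in the 6 libraries and with the term for the even libraries, and Fastk (0.007321), Uqcrc1 (0.007532) and Hspa9 (0.01319) without scaling factors. With 1 library left out, log2 fold changes ran from -0.138 to 0.00299 for ND1, -0.0401 to 0.0624 for ND5, -0.691 to 0.472 for COX3, -0.716 to 0.0929 for ATP6, -0.0553 to 0.0906 for Perm1 and -0.0755 to 0.0167 for Hspa9. The highest to lowest ratio moved to 1016 with shortened lengths and stayed between 2505 and 2867 otherwise. Of the genes named, Ppargc1b passed with DESeq2 and without the filter. Medians of lists that turned sign are given beside those lists. ND4L is limited by its counts.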
